A study of Mus musculus with 12 samples.

Results

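Zar1, Sel1l3 and Stc1 were measured in fetal mouse gonads at embryonic day 12.5 (E12.5), when the testis has begun to form. They are 3 of the 30176 gene symbols that had a transcript cluster of their own on the array. Each has 1 cluster that carries its symbol alone, so the choice of the brightest cluster per symbol did not bear on them. The genes were chosen from measured values of these same arrays. Without the 2 dKO XY arrays of weakest signal, the fit called 4 of the 65956 clusters different between dKO XY and control XY gonads, and these were the 3 genes and Amh. Their differences between the groups are therefore given as descriptions, without a test. In all 3 genes, the dKO XY and control XX gonads lay below the control XY gonads in every array. Of all clusters, 8.24% did so for dKO XY and 5.76% for control XX.

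There were 3 groups of 4 arrays. The dKO XY gonads were testes of Amh-/-; Inhbb-/- fetuses, which lack anti-Müllerian hormone (AMH) and the inhibin βB subunit that makes activin B. The control XX gonads were ovaries and the control XY gonads were testes, both Amh+/+; Inhbb+/+. All came from crosses of Amh and Inhbb heterozygotes on a C57BL/6 background, and gonads were taken off the mesonephros before freezing. Both deletions are carried by every cell of the fetus, so no cell type is singled out by the model. The labels do not say how many gonads or fetuses an array holds, and the spread between arrays may be partly technical. The stage follows the sample labels. The study's data statement assigns these samples to E15.5, while its methods give 4 samples a group for E12.5 only.

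AMH and activin B are secreted ligands of the TGF-β family. Both are made by Sertoli cells, the supporting cells of the testis cords, and signal through SMAD proteins in neighbouring cells. Zar1 (zygote arrest 1) encodes an RNA-binding protein best known from oocytes, where it takes part in the storage of maternal mRNA that the embryo uses after fertilization. Stc1 encodes stanniocalcin 1, a secreted glycoprotein first known in fish as a regulator of calcium, and in mammals an inhibitor of the pappalysin proteases that release insulin-like growth factors from their binding proteins. Sel1l3 encodes a transmembrane protein with Sel1-like repeats whose role is poorly known. Its relative SEL1L holds together the complex that removes misfolded proteins from the endoplasmic reticulum. Zar1 and Sel1l3 lie on mouse chromosome 5 and Stc1 on chromosome 14. RefSeq also lists a Zar1 pseudogene on chromosome 5. It has no cluster of its own here, and whether the Zar1 probes also read it was not tested.

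The labels held clearly in Amh and less firmly in Inhbb. Amh ranged over 5.59 to 5.90 (log2 intensity) in dKO XY, 5.14 to 5.52 in control XX and 10.56 to 13.38 in control XY gonads. Inhbb was dimmer, at 6.69 to 6.99 in dKO XY, 6.49 to 6.97 in control XX and 7.10 to 8.02 in control XY gonads. Which part of the gene its cluster covers was not examined. Its difference of dKO XY against control XY was -0.59 (limma adjusted p = 0.035). This call was lost after quantile normalization (adjusted p = 0.0557). It was also lost without dKO XY 1, dKO XY 3, dKO XY 4, control XY 2 or control XY 3 (1 array at a time). Sox9, the transcription factor that sets Sertoli cell fate, was at 9.94 to 10.85 in dKO XY, 6.91 to 7.67 in control XX and 10.04 to 10.68 in control XY gonads. Fst, a follistatin gene of the early ovary, was at 6.24 to 6.56, 10.02 to 11.80 and 5.68 to 6.48 in the same order of groups. The arrays differed in signal contrast, the mean of 1324 positive minus that of 5222 negative control probe sets. It was 3.11 ± 0.585 in dKO XY, 3.41 ± 0.228 in control XX and 4.07 ± 0.317 in control XY arrays (log2, SD, n = 4 each). The two-sided exact permutation p was 0.0571 for dKO XY against control XY, 0.0286 for control XX against control XY and 0.371 for dKO XY against control XX, where 0.0286 is the smallest that 4 against 4 arrays allow. dKO XY 3 and dKO XY 1 were lowest, at 2.48 and 2.83.

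The counts of changed clusters rested on few arrays. Over all 65956 clusters, 26.5% passed an adjusted p of 0.05 for dKO XY against control XY (9.8% lower and 16.7% higher), 1.95% for control XX against control XY and 0.215% for dKO XY against control XX (limma, Benjamini-Hochberg adjustment). The median difference of all clusters was 0.17, 0.12 and 0.06 in these comparisons. The 17501 calls of dKO XY against control XY, 6465 lower and 11036 higher, became 975 lower and 835 higher after quantile normalization, and 11165 lower and 2709 higher with each array centred on its median. There were 78 calls without dKO XY 1, 197 without dKO XY 3 and 110 without control XY 3. With signal contrast as a covariate limma made 0 calls (2949 clusters at unadjusted p under 0.05). Among the 4889 clusters whose mean level was above the 95th percentile of the negative controls, fitted alone, 681 were lower and 86 higher. Their median difference was -0.48. The gene lists below were not set against clusters of like brightness.

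Zar1 was highest in control XY gonads. Its level was 6.75, 7.06, 6.96 and 7.32 in the 4 dKO XY arrays (log2 intensity), 6.36, 6.75, 6.49 and 6.31 in the control XX arrays and 9.19, 9.46, 9.43 and 8.71 in the control XY arrays. The dimmest control XY array was 1.39 above the brightest dKO XY array. All 4 dKO XY arrays lay below all 4 control XY arrays, as did 8.24% of all clusters, and the same held for control XX, as for 5.76% of all clusters. The mean was 7.02 ± 0.23 in dKO XY, 6.48 ± 0.20 in control XX and 9.20 ± 0.35 in the control XY group (SD, n = 4 each). The difference of dKO XY minus control XY was -2.17 ± 0.18 (log2, SE), which is 4.52-fold lower and ranked 17 from the lowest among 30176 symbols. Control XX minus control XY was -2.72 ± 0.18, or 6.60-fold lower, at rank 30.

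Zar1 in dKO XY gonads was above the ovary in most arrays. It differed by 0.55 ± 0.18 between dKO XY and control XX gonads (log2, SE). The 3 brighter dKO XY arrays were above every control XX array, and the dimmest, dKO XY 1, was level with the brightest control XX array at 6.75. Both groups lay among the negative control probe sets: 31.3% to 45.7% of these were at or above Zar1 in the dKO XY arrays, and 41.8% to 54.4% in the control XX arrays, against 6.82% to 16.4% in the control XY arrays. What share of the low signal comes from Zar1 mRNA was not tested. For all 3 genes the folds and ranks against control XY are those of the measured signals, set against a signal among the negative controls. That may understate the change, while the choice of the genes by these same differences may overstate it. The size of neither was tested.

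**Figure D1:**
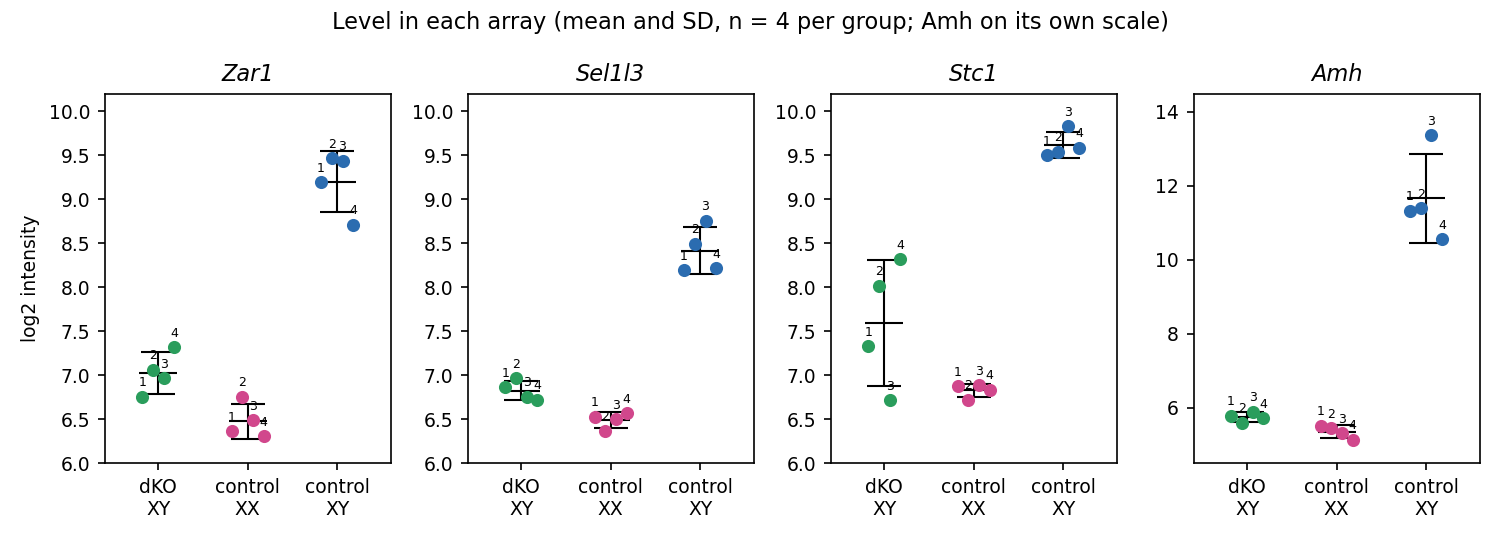
Level of Zar1, Sel1l3, Stc1 and Amh (log2 intensity, vertical axis) in each array of dKO XY, control XX and control XY gonads; numbers give the array, bars the mean and SD, n = 4 each. The control XY arrays stand above all others in each panel, and Stc1 in dKO XY gonads spreads over 6.71 to 8.32.

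The promoter of Zar1 was set beside that of its paralogue Zar1l, because the groups overlapped in Zar1l and not, against control XY, in Zar1. Zar1l lay near the median of the negative control probe sets, so its overlap does not show an unchanged gene. The RefSeq windows span 250 bases before to 50 bases after the transcription start. Capitals mark each E-box, CANNTG, a core bound by basic helix-loop-helix factors, which is its own reverse complement and so was searched on both strands at once. Both windows come from build GRCm38.p6 and both genes are on the minus strand, Zar1 at chr5:72581035-72581334 and Zar1l at chr5:150518110-150518409.
Zar1: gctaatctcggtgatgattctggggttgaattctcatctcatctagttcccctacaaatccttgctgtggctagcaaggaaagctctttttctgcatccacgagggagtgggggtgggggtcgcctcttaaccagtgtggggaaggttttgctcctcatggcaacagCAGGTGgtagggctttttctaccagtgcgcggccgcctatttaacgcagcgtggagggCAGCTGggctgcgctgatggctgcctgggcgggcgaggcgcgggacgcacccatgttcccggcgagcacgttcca
Zar1l: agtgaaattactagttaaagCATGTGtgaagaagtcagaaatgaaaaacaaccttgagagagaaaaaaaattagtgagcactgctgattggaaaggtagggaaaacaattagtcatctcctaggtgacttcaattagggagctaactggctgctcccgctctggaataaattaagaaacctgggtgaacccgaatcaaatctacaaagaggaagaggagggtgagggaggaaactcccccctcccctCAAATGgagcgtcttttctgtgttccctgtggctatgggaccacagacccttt
The Zar1 window lies inside the annotated gene (72577113 to 72581361 on chromosome 5), so the start it uses is downstream of the gene's outer end. In Zar1 the E-boxes begin 83 and 25 bases before the start in use. Each of the 2 promoters holds 2 E-boxes, as 39.6% of 32851 promoter windows hold 2 or more. No CAGAC (a SMAD element, in 49.6% of windows), AACAAT (a SOX site, in 10.7%) or AAGGTCA (an NR5A1 site, in 4.72%) was found in the Zar1 window on either strand, while the Zar1l window held 1 CAGAC and 1 AACAAT. Zar1 has 58.7% G and C in its window and Zar1l 44.3%. Matches to such short motifs are a description of the letters, not of binding.

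Zar1l, which also acts in oocyte mRNA storage in the mouse, was at 5.86 to 6.52 in dKO XY, 6.28 to 6.45 in control XX and 5.97 to 6.32 in control XY gonads. The 3 ranges overlapped. They lay near the median of the negative control probe sets, which was 6.25 to 6.65 over the arrays. Whether Zar1l mRNA was detected was not tested. Its difference was 0.18 ± 0.15 for dKO XY against control XY (log2, SE, limma adjusted p = 0.359) and 0.25 ± 0.15 for control XX against control XY (adjusted p = 0.316).

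Sel1l3 was likewise highest in control XY gonads. Its level was 6.86, 6.96, 6.76 and 6.72 in the dKO XY arrays (log2 intensity), 6.53, 6.37, 6.50 and 6.57 in the control XX arrays and 8.19, 8.49, 8.76 and 8.21 in the control XY arrays. No group overlapped another: the dKO XY arrays were all above the control XX arrays, as were 1.92% of all clusters, and all below the control XY arrays by at least 1.23. The means were 6.83 ± 0.11 in dKO XY, 6.49 ± 0.09 in control XX and 8.41 ± 0.27 in the control XY group (SD, n = 4 each). Sel1l3 was 3.01-fold lower in dKO XY than in control XY gonads, a difference of -1.59 ± 0.13 (log2, SE) at rank 162 of 30176 symbols. The ovary was 3.79-fold lower than the control XY testis, at -1.92 ± 0.13 and rank 81. dKO XY minus control XX was 0.33 ± 0.13. Between 37.5% and 44.9% of the negative control probe sets were at or above Sel1l3 in dKO XY arrays, 47.3% to 50.3% in control XX arrays and 11.8% to 22.1% in control XY arrays, so the folds of 3.01 and 3.79 are set against a signal not told apart from background.

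The signals of the relatives of Sel1l3 moved less than Sel1l3 or, in Sel1l2 near background, the other way. Sel1l, the scaffold of the degradation complex, was at 7.78, 8.11, 7.44 and 8.08 in dKO XY, 8.06, 8.40, 7.78 and 8.28 in control XX and 8.56, 8.58, 9.08 and 8.63 in control XY gonads. It fell by 0.86 ± 0.19 in dKO XY against control XY gonads (log2, SE, adjusted p = 0.0218), and the difference of control XX against control XY was -0.58 ± 0.19 (adjusted p = 0.129). The signal of Sel1l2, a related gene, rose by 0.56 ± 0.16 in dKO XY against control XY gonads (adjusted p = 0.0312). It was at 5.63 to 6.41 in dKO XY, 5.57 to 5.95 in control XX and 5.32 to 5.62 in control XY gonads. The median of the negative control probe sets was 6.36 to 6.52, 6.35 to 6.52 and 6.25 to 6.65 in the same order. Sel1l2 lay near or below it, and whether its mRNA was detected was not tested. Both calls were lost without dKO XY 1, dKO XY 3 or control XY 3, and after quantile normalization, where the adjusted p was 0.0565 for Sel1l and 0.119 for Sel1l2. That of Sel1l2 was also lost without dKO XY 4, control XY 2 or control XY 4.

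Stc1 varied most among the dKO XY gonads. Its level was 7.33, 8.02, 6.71 and 8.32 in the 4 dKO XY arrays (log2 intensity), 6.87, 6.72, 6.89 and 6.83 in the control XX arrays and 9.50, 9.54, 9.83 and 9.58 in the control XY arrays. dKO XY 3 lay just below every ovary, dKO XY 2 and 4 lay more than 1 above every ovary, and the brightest dKO XY array stayed 1.18 below the dimmest control XY array. The SD was 0.72 in dKO XY, 0.07 in control XX and 0.15 in the control XY group. The difference of dKO XY minus control XY was -2.02 ± 0.27 (log2, SE), which is 4.05-fold lower, at rank 27 of 30176 symbols. Control XX minus control XY was -2.79 ± 0.27, 6.89-fold lower and at rank 26, and dKO XY minus control XX was 0.77 ± 0.27. In the dKO XY arrays 17.4% to 45.8% of the negative control probe sets were at or above Stc1, in control XX arrays 39.5% to 43.4% and in control XY arrays 5.55% to 9.71%, and the same limit holds for the folds of 4.05 and 6.89.

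Signal contrast moved with Stc1 within the dKO XY group. The dKO XY arrays of lowest contrast, 3 and 1 (2.48 and 2.83), were also those of lowest Stc1, and dKO XY 4 and 2, at 3.30 and 3.83, were the highest. Among control XX arrays the contrast ran over 3.21 to 3.65 while Stc1 stayed within 6.72 to 6.89. With signal contrast as a covariate the Stc1 difference of dKO XY minus control XY was -1.29, and without dKO XY 1 and 3 it was -1.45, against -2.02 over all arrays. Without those 2 arrays dKO XY minus control XX was 1.34, against 0.77.

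For Zar1 and Sel1l3 the difference of dKO XY minus control XY was -1.84 and -1.37 with the covariate. Without dKO XY 1 and 3 it was -2.01 and -1.57, but that fit is the one in which the 3 genes were called, so these values and the Stc1 value from it say nothing about stability. The part of signal contrast in the levels of the 3 genes was not tested.

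**Figure D2:**
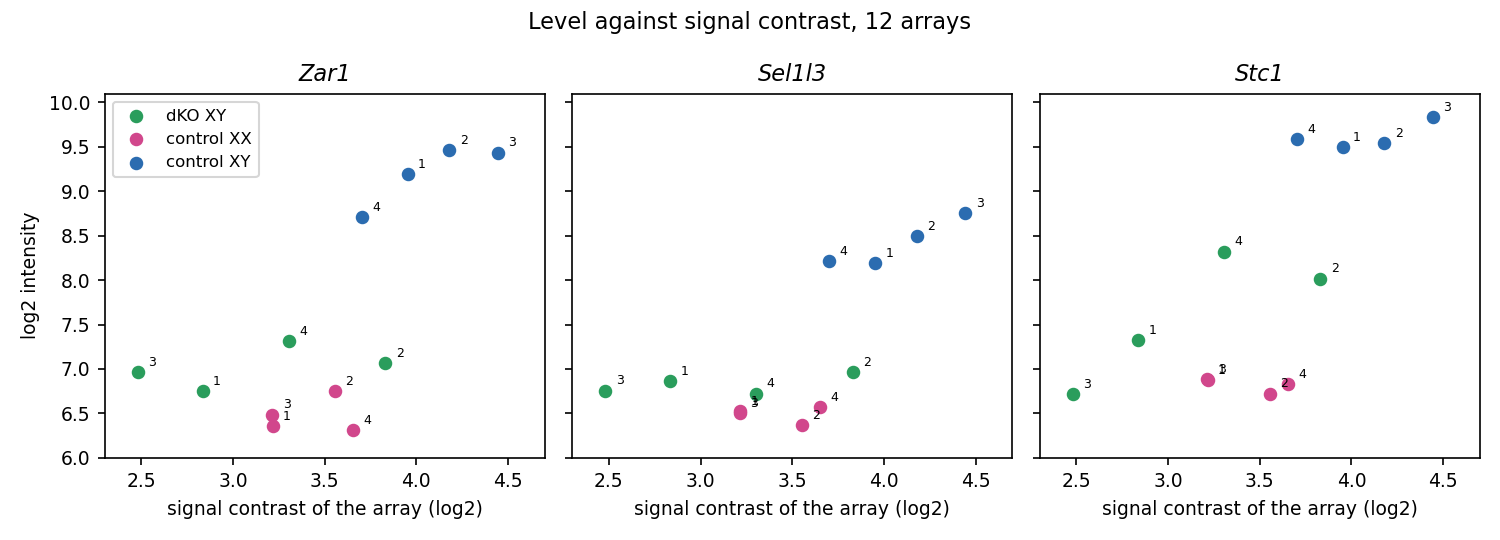
Level of each gene (log2 intensity, vertical axis) against the signal contrast of the array (log2, horizontal axis), 12 arrays numbered within their group. The dKO XY arrays run over 2.48 to 3.83 in contrast and the control XY arrays over 3.70 to 4.44; Stc1 is lowest in the dKO XY arrays of lowest contrast.

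Stc2, the paralogue of Stc1 and likewise a pappalysin inhibitor, was lower in the same groups. It was at 6.40, 6.34, 6.30 and 6.56 in dKO XY, 6.15, 6.12, 6.07 and 6.38 in control XX and 6.87, 7.10, 7.16 and 7.06 in control XY gonads (log2 intensity). Every control XY array was above every other array, which held for 8.24% of all clusters against dKO XY and 5.76% against control XX. Stc2 fell by 0.87 ± 0.11 in control XX against control XY gonads (log2, SE, adjusted p = 0.00166), a call that was kept without any one array. It fell by 0.65 ± 0.11 in dKO XY against control XY gonads (adjusted p = 0.018). This call was kept after quantile normalization (adjusted p = 0.0273) and lost without dKO XY 1, dKO XY 3 or control XY 3 (highest adjusted p = 0.0675). dKO XY and control XX gonads differed by 0.22 ± 0.11 (adjusted p = 0.517).

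**Figure D3:**
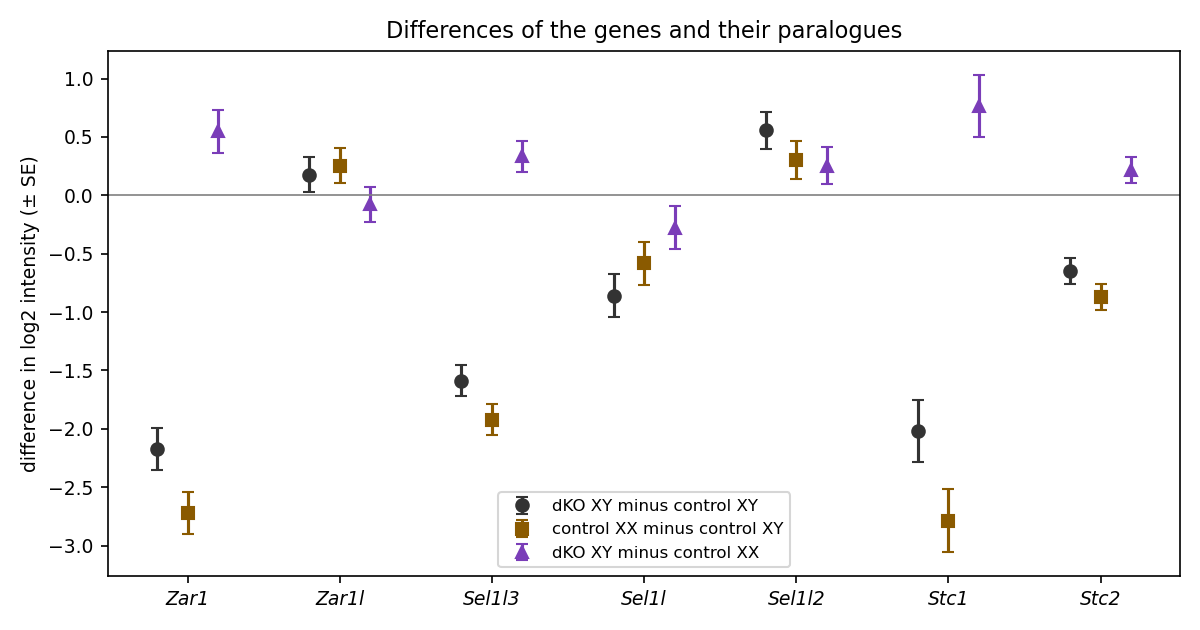
Difference in mean log2 intensity (vertical axis, bars ± SE, 4 arrays a group) of Zar1, Sel1l3, Stc1 and their paralogues in the 3 comparisons. The 3 genes lie between -1.59 and -2.79 against control XY, Stc2 at -0.65 and -0.87, and Zar1l at 0.18 and 0.25.

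The 3 genes followed each other across the 12 arrays mainly through the groups. Pearson's r was 0.975 for Zar1 and Sel1l3, 0.954 for Zar1 and Stc1 and 0.946 for Sel1l3 and Stc1, over arrays that share their group and their signal contrast. With the group means taken out, r was 0.289, 0.357 and 0.225 for the same pairs. Amh was the symbol most like Sel1l3 (r = 0.984, and 0.737 with the group means taken out). It was among the 5 most like Zar1 (0.972) and ranked 192 for Stc1 (0.917). Likeness was ranked among 18762 of the 30176 symbols. After quantile normalization Amh ranked 3 for Sel1l3, 12 for Zar1 and 345 for Stc1. The 3 genes and Amh were called by the same fit of these arrays, so their likeness across the groups was partly set by that choice.

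Among the symbols whose profile was most like that of Zar1 were Pknox2, a homeobox transcription factor (r = 0.985), and Igfbp7, a secreted binding protein (0.976). Igfbp7 was at 8.88 to 10.30 in dKO XY, 8.43 to 9.38 in control XX and 12.43 to 13.36 in control XY gonads, and differed by -3.22 and -3.91 against control XY. Sel1l3 was most like Amh, then Iqgap2, a scaffold protein (0.984), Tspan15, a tetraspanin that binds the protease ADAM10 (0.980), and Dpy19l3, a mannosyltransferase (0.977). Tspan15 was at 7.20 to 7.49 in dKO XY, 6.70 to 7.10 in control XX and 8.23 to 9.24 in control XY gonads, and its r with Sel1l3 was 0.897 with the group means taken out.

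Stc1 was most like Akap2, an anchor of protein kinase A (0.984), Rhobtb3 (0.974), Rcan1, an inhibitor of the phosphatase calcineurin (0.972), Loxl3, a lysyl oxidase (0.972), and Itga9, an integrin subunit (0.972). Akap2 shared the wider spread of dKO XY gonads, at 7.11, 7.31, 6.96 and 7.46, with r = 0.865 to Stc1 after the group means were taken out, and was also among the 5 symbols most like Zar1. After quantile normalization Akap2 kept the first place for Stc1, Rcan1 ranked 29 and Rhobtb3 ranked 269. The profiles most opposite were those of Rasgrp1, an activator of Ras, for Zar1 (-0.959) and Sel1l3 (-0.953), and of Lypd6 for Stc1 (-0.960). Rasgrp1 was at 6.77 to 7.01 in dKO XY, 6.88 to 7.01 in control XX and 6.19 to 6.41 in control XY gonads. These symbols were picked by their likeness, so their group differences carry no test.

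**Figure D4:**
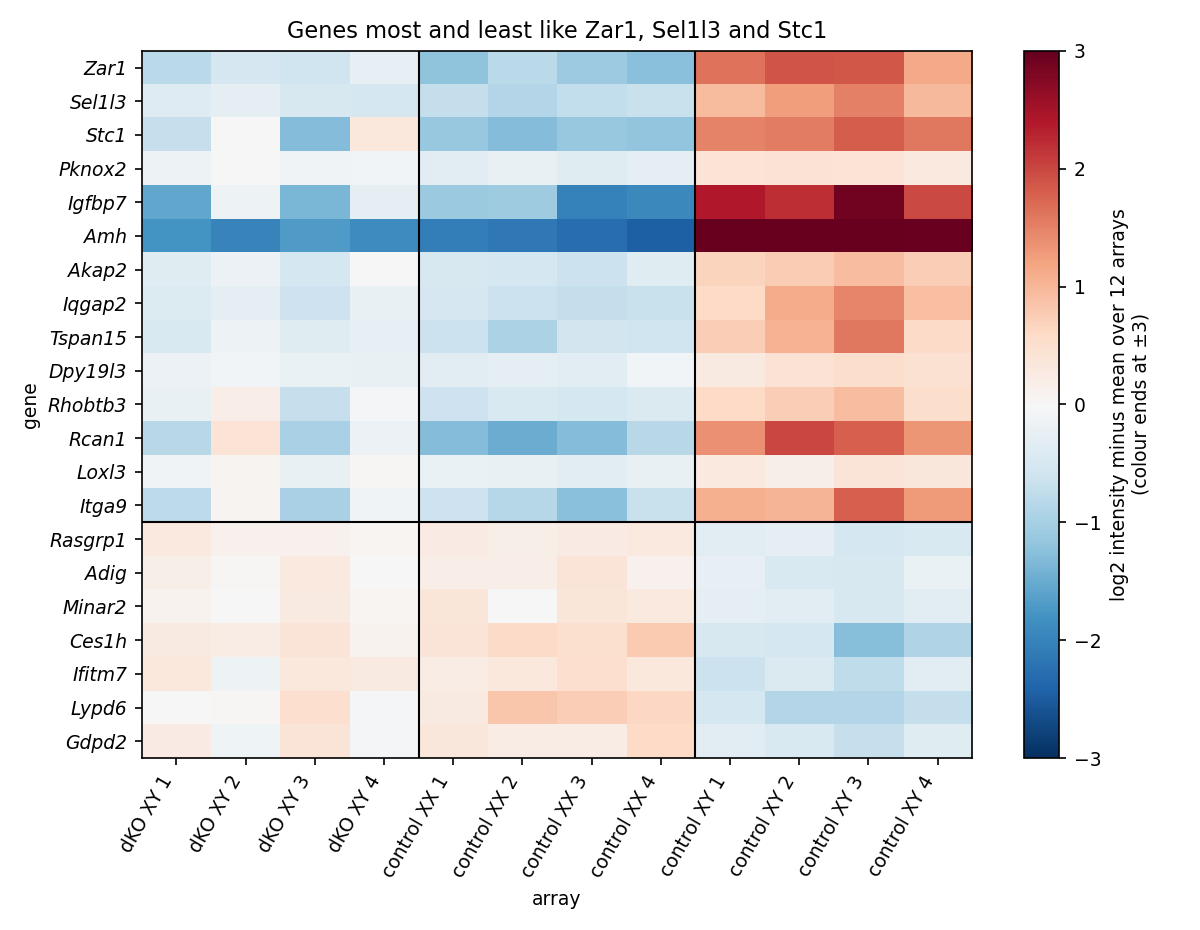
Log2 intensity minus the mean over 12 arrays (colour, which ends at ±3) of the 3 genes, the symbols most like them (upper block) and least like them (lower block), with arrays from dKO XY to control XY as columns. The upper block is high in control XY arrays, with Igfbp7 at 12.43 to 13.36 there, and the lower block is low in them.

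Genes of mRNA storage that work beside ZAR1 were counted next. For dKO XY against control XY, 8 of 19 fell and 2 rose (limma, adjusted p under 0.05, beside 9.8% and 16.7% of all clusters). The list median was -0.47, beside 0.11 over all symbols and -0.48 over the 4889 clusters above the negative controls. The 4 that fell most were the RNA helicase Ddx6 (-1.10), the deadenylase subunit Cnot6l (-1.03) and the terminal uridylyltransferases Tut4 (-0.92) and Tut7 (-0.81). These genes are used in many cell types, and Zar1l was not among those called. In control XX against control XY limma called 0 of the 19 (7 lower and 4 higher at unadjusted p under 0.05; 1 without moderation of the spread), with a median of -0.27. None of the 19 was called for dKO XY against control XY without dKO XY 1, dKO XY 3 or control XY 3, or after quantile normalization, where the median was -0.10.

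Oocyte genes leaned the way that the whole array did. Of 28 genes of the maternal-effect complex, the zona pellucida and oocyte transcription factors, 8 rose and 1 fell in dKO XY against control XY gonads, beside 16.7% and 9.8% of all clusters. The growth factor gene Bmp15 (0.59), the transcription factor gene Sohlh1 (0.53), Nlrp4f (0.52) and Zp3, a zona pellucida gene (0.52), rose most. The list median was 0.20, beside 0.11 over all symbols. The only gene that fell was Zbed3 (-0.38). In control XX against control XY limma called 0 of the 28 (1 lower and 3 higher at unadjusted p under 0.05; 0 without moderation), and the median was 0.16. For dKO XY against control XY there were 2 calls with arrays centred on their median, and 0 after quantile normalization, with the list median at -0.05, or without dKO XY 1, dKO XY 3, control XY 2 or control XY 3. Of 12 germ cell markers, 2 rose in dKO XY against control XY (16.7% of all clusters) and 1 rose in control XX against control XY gonads (0.608%), and their summed intensity was 5633 to 14050 in dKO XY, 14105 to 24860 in control XX and 5765 to 26561 in control XY arrays. The 2 calls in dKO XY were lost after quantile normalization and without dKO XY 1, dKO XY 3, control XY 2, control XY 3 or control XY 4. The part of germ cells in Zar1 was not tested.

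The genes of endoplasmic reticulum degradation that work with SEL1L were counted in the same way. Of 23, 15 fell and 1 rose in dKO XY against control XY gonads (9.8% and 16.7% of all clusters). The median was -0.65, beside 0.11 over all symbols and -0.48 over the 4889 clusters above the negative controls. Selenos (-0.98), the channel gene Derl1 (-0.96), Sel1l (-0.86) and the lectin gene Erlec1 (-0.85) fell most, and Sel1l2, near background, was the one that rose. After quantile normalization 2 of the 23 were called, Derl1 and Herpud1, with a median of -0.31, and none was called without dKO XY 1, dKO XY 3 or control XY 3. In control XX against control XY gonads, the chaperone genes Hspa5 (-1.23, adjusted p = 0.042) and Hsp90b1 (-1.04, adjusted p = 0.0341) fell, beside 1.34% of all clusters. Both were lost after quantile normalization and without control XX 1, control XX 2, control XX 3, control XY 2, control XY 3 or control XY 4, and Hspa5 also without dKO XY 1, dKO XY 4 or control XY 1.

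Genes tied to stanniocalcin and mineral transport changed about as often as all clusters in dKO XY gonads. Of 19, 3 fell and 3 rose in dKO XY against control XY gonads (9.8% and 16.7% of all clusters), and 2 fell and 1 rose in control XX against control XY gonads (1.34% and 0.608% of all clusters), with medians of 0.08 and 0.00. Slc20a1, a phosphate importer, was at 7.75 to 8.21 in dKO XY, 7.66 to 8.25 in control XX and 8.77 to 9.41 in control XY gonads, and fell by 1.07 in dKO XY (adjusted p = 0.0159) and by 1.16 in control XX gonads (adjusted p = 0.0043). Calb1, a calcium-binding protein also used as a duct marker, was at 7.29 to 7.81 in dKO XY gonads, at a median of 7.68 in control XX gonads and at 5.98 to 6.40 in control XY gonads, and rose by 1.22 in dKO XY (adjusted p = 0.0144) and by 1.30 in control XX gonads (adjusted p = 0.00357). Igfbp5, a binding protein that pappalysins cut, fell by 1.78 in dKO XY against control XY gonads (adjusted p = 0.0256). Without control XY 3 or dKO XY 1 none of the 19 was called in dKO XY against control XY, and without dKO XY 3 the call of Calb1 alone was kept. Igfbp5 was also lost without control XY 2 or control XY 4 and after quantile normalization (adjusted p = 0.0827). The 3 calls of control XX against control XY, Stc2, Slc20a1 and Calb1, were kept without any one array.

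**Figure D5:**
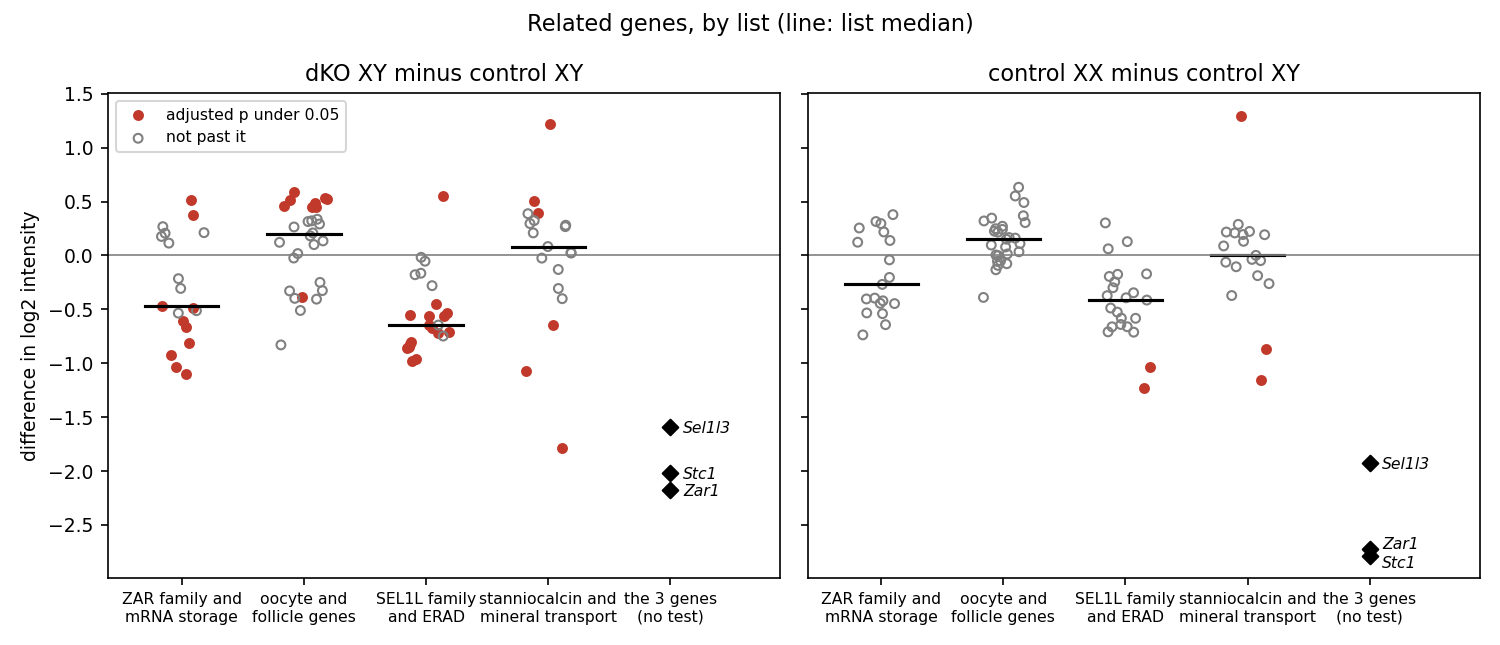
Difference in log2 intensity (vertical axis) of each gene in 4 lists, for dKO XY minus control XY (left) and control XX minus control XY (right); filled points have an adjusted p under 0.05, lines are list medians, and diamonds are the 3 genes, which were not tested. The medians of dKO XY minus control XY run from -0.65 for the SEL1L list to 0.20 for oocyte genes, with the 3 genes at -1.59 to -2.17.

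The genes beside the 3 on the chromosome were counted as a description of the region, since the 3 were chosen by their differences and the neighbours were not. Of the 22 measured among 4 protein-coding neighbours on each side, 5 fell and 4 rose in dKO XY against control XY gonads (9.8% and 16.7% of all clusters), and 3 fell and 1 rose in control XX against control XY gonads (1.34% and 0.608%). Among those called, Tbc1d19, a neighbour of Sel1l3, differed most (-0.87). Smim20, next to Sel1l3, fell by 0.69 in dKO XY gonads and by 0.75 in control XX gonads, both against control XY. Of the 4 that rose in dKO XY gonads, Adamdec1 (0.64) and Adam7 (0.57), neighbours of Stc1, rose most. In control XX against control XY gonads Gabrb1, a neighbour of Zar1, rose by 0.85, the largest change among those called there. Next to Zar1, Cnga1, a subunit of a cyclic nucleotide-gated channel, fell by 0.69 and Nipal1, a magnesium transporter, by 0.52 in the same comparison. None of the 22 was called for dKO XY against control XY after quantile normalization or without dKO XY 1, dKO XY 3 or control XY 3. For control XX against control XY only Nipal1 was called after quantile normalization, and none without control XY 3.

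No gene of these 4 lists or the neighbours was called for dKO XY against control XX, where the unadjusted p was under 0.05 for 0 to 3 genes in each direction of each list and the fit without moderation called 0. With signal contrast as a covariate, or without dKO XY 1 and 3, no gene of them was called for dKO XY against control XY.

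Markers of several somatic cells, but not of all those listed, were lower in the same groups as the 3 genes. In whole gonads fewer cells of a type cannot be told apart from less RNA per cell. Signal contrast was also lower in these groups (3.11 in dKO XY and 3.41 in control XX against 4.07 in control XY arrays). Its part in the markers was not tested. The counts stand beside 9.8% of all clusters lower and 16.7% higher in dKO XY against control XY, and 1.34% lower and 0.608% higher in control XX against control XY. Of 7 measured interstitial progenitor markers, 5 fell in dKO XY and 4 in control XX against control XY gonads. Their summed intensity was 2371 to 6451 in dKO XY, 2575 to 4219 in control XX and 11693 to 21406 in control XY arrays. Of 12 Sertoli cell markers, Amh among them, 7 fell in dKO XY and 10 in control XX against control XY gonads, and 5 were higher in dKO XY than in control XX gonads (0.0895% of all clusters). Of 6 fetal Leydig cell markers 2 fell in each comparison with control XY, with summed intensities of 969 to 1213 in dKO XY, 876 to 1416 in control XX and 1838 to 6221 in control XY arrays. Of 8 endothelial markers 3 fell in dKO XY gonads and 0 in control XX gonads against control XY (limma; 5 lower at unadjusted p under 0.05, 0 without moderation), with sums of 1902 to 3912, 2159 to 3226 and 4021 to 5818. Of 10 pre-granulosa markers 2 rose in dKO XY, close to the share of all clusters, and 7 in control XX against control XY gonads. Of 7 mesonephros and duct markers, Calb1 among them, 3 rose in dKO XY gonads and 2 in control XX gonads, with sums of 955 to 999, 996 to 1488 and 747 to 972. Limma called 0 of 7 coelomic epithelium markers against control XY, with medians of -0.12 for dKO XY and 0.05 for control XX. Of 8 macrophage and immune markers 2 rose in dKO XY and 0 in control XX against control XY. Their medians were 0.26 and 0.25. Of 5 erythroid markers 1 fell in dKO XY and 0 in control XX, with medians of -0.13 and -0.09. Against control XY the dKO XY counts fell to 4 Sertoli, 1 interstitial, 0 Leydig, 0 endothelial and 0 pre-granulosa markers without dKO XY 1, dKO XY 3 or control XY 3 (1 array at a time), and to 4, 2, 1, 0 and 0 after quantile normalization. The 2 Leydig calls of control XX, Cyp17a1 and Nr5a1, were both lost without control XX 1, control XX 2 or control XX 3. Cyp17a1 was also lost without dKO XY 1, dKO XY 4, control XX 4 or control XY 4, and Nr5a1 without control XY 2 or control XY 3. The 7 pre-granulosa calls of control XX were 4 without control XX 2, control XY 3 or control XY 4. Of the duct markers, 0 were called in dKO XY gonads without dKO XY 1 or control XY 3. The immune and erythroid calls of dKO XY were lost after quantile normalization. They were also lost without dKO XY 1, dKO XY 3, control XY 2 or control XY 3. At unadjusted p under 0.05, 2 coelomic epithelium markers were lower and 1 higher in dKO XY against control XY. For control XX against control XY, 3 immune markers were higher and 1 erythroid marker lower at that level. With signal contrast as a covariate 0 markers were called for dKO XY against control XY, as over all 65956 clusters. Without dKO XY 1 and 3 only Amh was called among the markers. For control XX against control XY the covariate left 9 Sertoli, 4 interstitial, 0 Leydig, 4 pre-granulosa and 0 duct calls. Which of these cells hold Zar1, Sel1l3 or Stc1, and the part of these markers in their levels, was not tested.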

How the data were processed

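The authors amplified RNA of 12 gonad samples, hybridized it to Affymetrix Clariom D mouse arrays and, by their methods, compared RMA-normalized intensities in a one-way model. The deposited values are log2 intensities of 72688 probe sets, 65956 of them transcript clusters, and range over 2.79 to 19.93. Background correction and summary are not stated with the table, and the values were used as deposited. The number of arrays limits the precision. Of the clusters, 30638 carry 1 symbol in the platform annotation, 2176 several and 33142 none, and the brightest cluster stood for each of 30176 symbols. Arrays of a group correlated at 0.974 to 0.992. Clusters were fitted with limma 3.58.1 in R 4.3.3 (lmFit, eBayes, 3 group means), with Benjamini-Hochberg adjustment over all clusters. The fit was tested on simulated data. Sequences come from RefSeq (GRCm38.p6), whose promoter table held 1 of the 3 genes. Named are the 3 genes, the targeted genes, Sox9 and Fst, paralogues, and the 5 most and 3 least like symbols. Up to 4 called genes a list were also named in each comparison. Herpud1 and Zbed3 were singled out after their values were seen. Members and lists were chosen with earlier results of these data known. Alternatives are given below. Plots used matplotlib 3.10.9.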

Additional observations from a re-analysis of the deposited data

How the results depend on the processing

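The replicate block, the fit of the compared groups only and the mean over clusters leave the difference of each of the 3 genes as it is by construction. Under the alternatives that could move it, scaling, the covariate, group medians and arrays left out, no difference changed sign, but the genes were chosen for these differences. With 1 array left out at a time, dKO XY minus control XY stayed within -2.34 to -2.09 for Zar1, -1.66 to -1.48 for Sel1l3 and -2.26 to -1.73 for Stc1, control XX minus control XY within -2.89 to -2.63, -1.996 to -1.81 and -2.82 to -2.71, and dKO XY minus control XX within 0.45 to 0.64, 0.29 to 0.37 and 0.52 to 1.06. With signal contrast as a covariate, dKO XY minus control XY was -1.84 for Zar1, -1.37 for Sel1l3 and -1.29 for Stc1, and control XX minus control XY of Stc1 was -2.28. With arrays centred on their median, dKO XY minus control XY of Sel1l3 was -1.85 and control XX minus control XY of Stc1 -2.96, and the last was -2.55 after quantile normalization. The fit without dKO XY 1 and 3, chosen after seeing the data, gave -1.45 for Stc1 against control XY and 1.34 against control XX. The 17501 calls of dKO XY against control XY were 1810 after quantile normalization, 0 with the covariate (limma, 2949 at unadjusted p under 0.05), 10849 with the 8 arrays of the compared groups only, 6958 without moderation, 4 without dKO XY 1 and 3, 767 among the 4889 clusters above the negative controls, 2824 at 2-fold or more, and 78 to 28065 without 1 array. The 1284 calls of control XX against control XY were 391 with the covariate, 787 without moderation, 72 among clusters above the negative controls, 649 at 2-fold or more and 569 to 1821 without 1 array. The 142 calls of dKO XY against control XX were 235 after quantile normalization and with the covariate alike, 54 with arrays centred, 43 with the compared groups only, 34 without moderation, 66 without dKO XY 1 and 3, 21 among clusters above the negative controls and 36 to 211 without 1 array. The cause of these shifts was not tested. Whether equal replicate numbers mark a shared litter or day is not stated and was not settled. Deviations from the group means of same-numbered arrays correlated at -0.41 to 0.21, -0.33 to 0.25 and -0.02 to 0.37 in the 3 comparisons. They were over 0.1 in 1, 2 and 3 of 4 pairs. In 1, 1 and 2 of 4 pairs the best correlation was with the array of the same number. The replicate block gave 15460, 965 and 100 calls. All 3 genes stayed under the 95th percentile of the negative controls in every array, which limits what their low levels show.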
